A study of Homo sapiens with 6 samples.

Results

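The genes described here are the 2 copies of SLX1 in the human genome, SLX1A and SLX1B, and the subunits of the structure-specific DNA nucleases that act with SLX1 or on the same DNA structures: SLX4, MUS81, EME1, GEN1, ERCC1 and ERCC4. They are 8 of the 16279 genes in the deposited tables, were taken by gene symbol, and all 8 passed edgeR's filter on low counts, which kept 13311 genes. The group was chosen by the counts of SLX1B, which were higher in the treated libraries of this same experiment. The values of SLX1A, SLX1B and their sum are therefore a description and carry no test, and tests are given only for the other 6 members.

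12Z is an established human cell line of endometriotic epithelial origin, and all 6 libraries come from this single line. Cells of the Control group received no treatment, and cells of the other group received 10 ng/mL of rhChem157S for 48 h, the recombinant active form of the adipokine chemerin that the sample labels call rhChemerin. Each group had 3 libraries, labelled as biological replicates, and no separate vehicle group was analysed. RNA was measured in bulk, so that a change of RNA per cell and a change in the share of cells that carry the RNA cannot be told apart. The count totals over genes lay between 35430881 and 38341643 per library. rhChem157S replicate 3 stood apart, with a mean correlation of log2 CPM across genes of 0.959 with the other libraries against 0.977 to 0.979 for the others, and results are given with and without it where it matters.

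Structure-specific nucleases cut DNA where its strands branch, for example at Holliday junctions, the crossed strands that join paired chromosomes during recombination, and at flaps and stalled replication forks. SLX1 is a catalytic subunit that works bound to SLX4, a large scaffold that also binds MUS81-EME1 and the ERCC4-ERCC1 pair (XPF-ERCC1), while GEN1 resolves Holliday junctions on its own. ERCC4-ERCC1 makes one of the cuts in nucleotide excision repair, and SLX4 and ERCC4 are Fanconi anaemia genes, required for the repair of crosslinks between DNA strands.

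The copies of SLX1 lie in a duplicated block of chromosome 16, so the sequence decides how well reads can be assigned to one of them. On GRCh38 with GENCODE release 29, SLX1A spans chr16:30193887-30197561 and SLX1B spans chr16:29454501-29458219, both on the plus strand. Each has a coding transcript of 6 exons with 825 coding bases, or 275 codons, before the stop. The 1091 bases of SLX1A-201 were found without a single edit inside the 1165 bases of SLX1B-201, and the shorter coding transcripts, SLX1A-202 and SLX1B-202, were identical over 762 bases. A read that lies within these exons therefore matches both copies equally well. To show this, the coding part of exon 1 is printed with the start codon in capitals; it is the same 188 bases at chr16:30194085-30194272 (SLX1A) and chr16:29454743-29454930 (SLX1B):
SLX1A and SLX1B: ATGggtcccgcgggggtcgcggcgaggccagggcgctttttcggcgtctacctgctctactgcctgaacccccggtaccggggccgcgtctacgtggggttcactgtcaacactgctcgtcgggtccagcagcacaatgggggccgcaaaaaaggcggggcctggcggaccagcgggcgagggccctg

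Differences between the copies in the reference were found only in introns, among the transcripts with a counterpart of the same length. The retained-intron transcripts SLX1A-206 and SLX1B-203, of 1558 bases, differ by C839G in intron 1, and SLX1A-205 and SLX1B-204, of 1140 bases, differ by G889C in intron 4. Here the base of SLX1A comes first, the position is counted from 1 at the 5′ end of the transcript, and the base of SLX1B comes last. These are the positions in the compared transcripts at which a read could tell the copies apart, and the windows of 61 bases around them are printed with that base in capitals. The first pair covers chr16:30194695-30194755 and chr16:29455353-29455413, and runs from intron 1 into exon 2. The second pair covers chr16:30197170-30197230 and chr16:29457828-29457888.
SLX1A, intron 1: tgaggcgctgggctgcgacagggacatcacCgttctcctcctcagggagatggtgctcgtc
SLX1B, intron 1: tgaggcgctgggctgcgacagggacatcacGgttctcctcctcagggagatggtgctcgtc
SLX1A, intron 4: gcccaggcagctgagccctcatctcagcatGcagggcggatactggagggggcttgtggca
SLX1B, intron 4: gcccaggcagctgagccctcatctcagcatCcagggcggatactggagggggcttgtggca
Sequence of the 12Z cells themselves was not analysed here. How the counting treated reads that align to more than 1 place is not given in the sources used here.

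The neighbours of the copies are duplicated too. On the same strand, exons of SLX1A share 2120 bases with the readthrough gene SLX1A-SULT1A3, and exons of SLX1B share 1565 bases with SLX1B-SULT1A4. On the opposite strand, SLX1A shares 420 exon bases with BOLA2B, and SLX1B shares 615 with BOLA2 and BOLA2-SMG1P6. These overlaps are those of GENCODE, with 2464 exon bases for SLX1A and 2462 for SLX1B over all transcripts. The FPKM imply a length of 1165 bases for each copy, so the gene models used in counting differ, and their overlaps were not computed. The readthrough genes and BOLA2 have no row of their own in the tables, and the strand setting of the counting is not given in the sources used here, so reads of these genes and of the SLX1 copies may not be separated. Of the RefSeq promoter windows of 300 bases on GRCh38.p14, that of SLX1B was identical to 1 of the 2 listed for SLX1A.

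**Figure D1:**
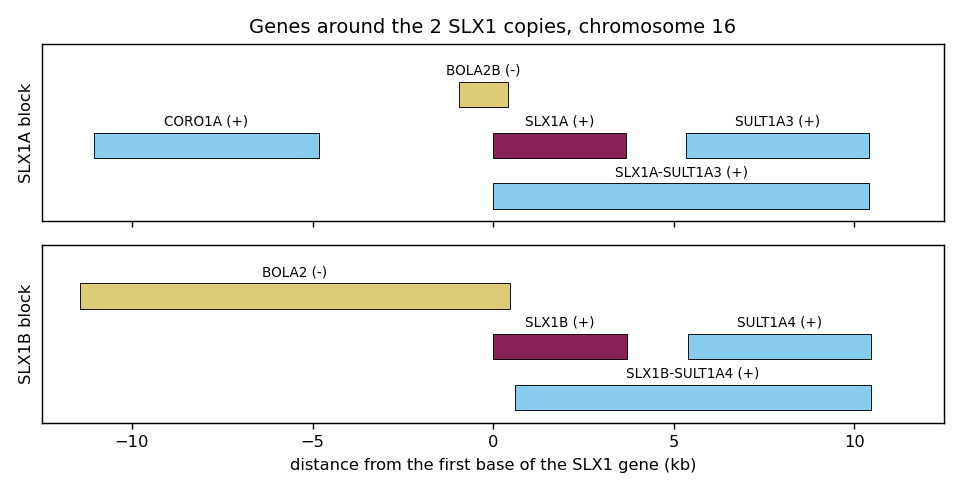
Genes around SLX1A (top) and SLX1B (bottom), drawn to scale as the distance in kb from the first annotated base of each SLX1 gene; plus-strand neighbours are blue and minus-strand neighbours yellow. Both copies overlap a BOLA2 gene at their start and a readthrough gene that runs on into a SULT1A gene.

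In the counts, the SLX1B row was higher with rhChem157S and the SLX1A row was not. SLX1B had 27, 61 and 46 counts in Control replicates 1 to 3, and 345, 301 and 258 counts in rhChem157S replicates 1 to 3. The lowest treated library thus held more SLX1B counts than the highest Control library, and the groups did not overlap. In FPKM, counts scaled by gene length and library total, the Control cells had an SLX1B level of 1.06 ± 0.387 (SD, n = 3), and the treated cells had 6.92 ± 0.917 (SD, n = 3). After TMM normalization the mean CPM was 7.15-fold higher, and the edgeR log2 fold change was 2.83 with a standard error of 0.30. Without rhChem157S replicate 3 the log2 fold change was 2.89.

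SLX1A, the other copy, had 123, 197 and 153 counts in Control replicates 1 to 3, and 140, 141 and 158 counts in rhChem157S replicates 1 to 3. All 3 treated values lay within the range of the Control values. The FPKM of SLX1A was 3.74 ± 0.815 (SD, n = 3) in Control and 3.37 ± 0.248 (SD, n = 3) in treated cells, with a log2 fold change of -0.02 and a standard error of 0.24. Over all alternatives this log2 fold change ran from -0.15 to 0.15.

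The sum of both rows does not depend on how the counted reads were split between them. It may miss reads that align to both copies, or hold reads of overlapping genes, since the counting settings are not given. The sum was 150, 258 and 199 counts in Control replicates 1 to 3, and 485, 442 and 416 counts with rhChem157S. The groups did not overlap, and the treated libraries lay close together in normalised CPM, from 12.4 to 12.7, against 4.08 to 6.66 in Control. The summed FPKM was 4.80 ± 1.197 (SD, n = 3) in Control and 10.3 ± 0.671 (SD, n = 3) in treated cells. On the CPM scale the sum was 2.35-fold higher, against 7.15-fold for the SLX1B row alone. The log2 fold change of the sum was 1.23 with a standard error of 0.20. It was 1.23 without rhChem157S replicate 3, and 1.07 to 1.42 over all single libraries left out.

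The split between the copies moved with the level. SLX1B held 18% of the SLX1 counts in Control replicate 1 (exact Clopper-Pearson 95% interval 12.2 to 25.1), 23.6% in replicate 2 (18.6 to 29.3) and 23.1% in replicate 3 (17.4 to 29.6). With rhChem157S it held 71.1% in replicate 1 (66.9 to 75.1), 68.1% in replicate 2 (63.5 to 72.4) and 62.0% in replicate 3 (57.2 to 66.7). These intervals cover counting error only. In every Control library SLX1A was the copy with more counts, and in every treated library SLX1B was. The mean share was 21.6% ± 3.12 (SD, n = 3) and 67.1% ± 4.64 (SD, n = 3), a difference of 45.5 percentage points, or 48.03 without rhChem157S replicate 3. Whether reads of 1 copy were assigned to the other in some libraries was not tested.

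**Figure D2:**
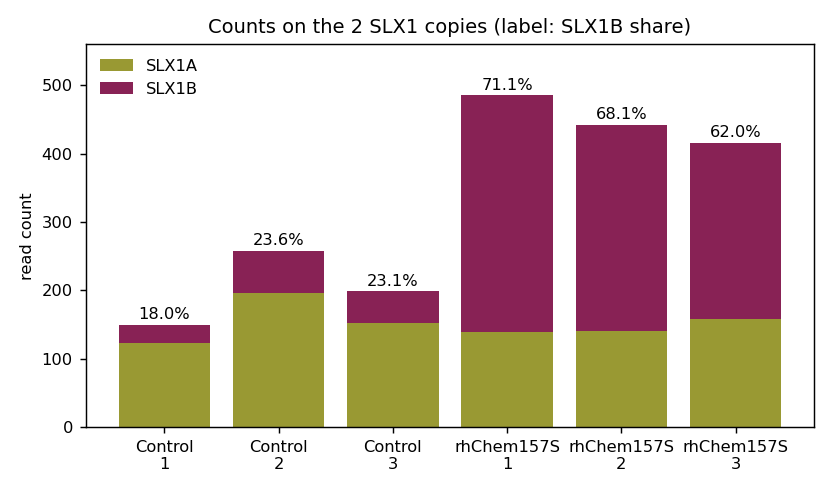
Read counts assigned to SLX1A (olive) and SLX1B (purple) in each of the 6 libraries, stacked from 0; the label is the percentage of the SLX1 counts on SLX1B. The SLX1A part is of similar height in all libraries, from 123 to 197 counts, and the SLX1B part runs from 27 to 61 in Control and from 258 to 345 with rhChem157S.

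Other genes with an identical annotated transcript of at least 300 bases show how such splits vary between these libraries. This comparison was chosen after the values of SLX1 were seen, and has no test. Of 26 such pairs on GENCODE transcripts, 17 had at least 100 counts in every library. The mean share of SLX1B moved by 45.5 percentage points. Over the other 16 pairs the shift of the mean had a median size of 4.82 points and went up to 17.4 points, for NPIPB12 and NPIPB13. Single libraries of 1 group could lie further apart than these means. The widest spans among the pairs compared were those of U2AF1 and U2AF1L5, 47.1 points over the Control and 67.2 over the treated libraries. SULT1A3 and SULT1A4, next to the copies, had as few as 13 counts together and were not compared. Their spans were 18.2 points over the Control and 68.3 over the treated libraries, and their mean share moved by 0.72 points. For SLX1A and SLX1B the spans were 5.64 and 9.11 points. In 3 of the other 16 the shares of the groups did not overlap. Several of these pairs share a gene, and SLX1B was selected for its change while the others were not.

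**Figure D3:**
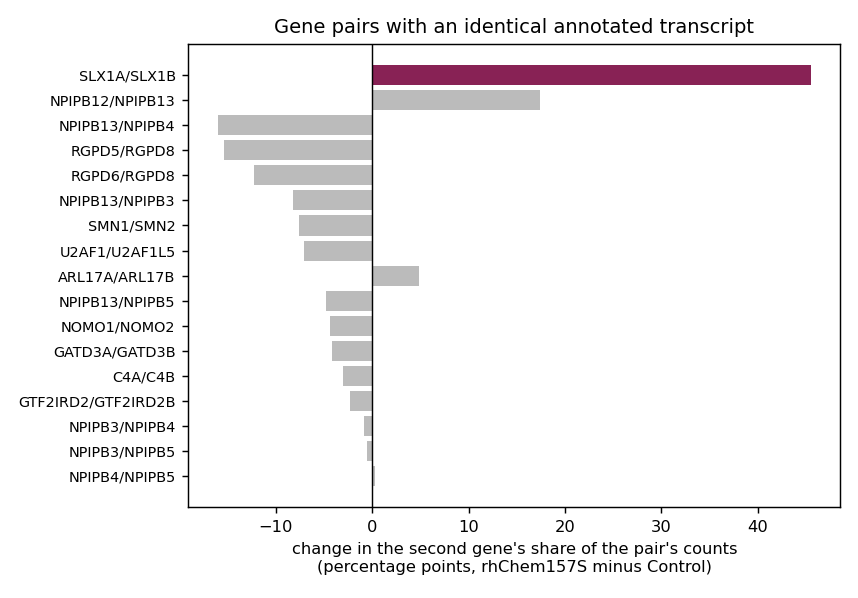
Change, in percentage points, of the share of a pair's counts on the second gene, as the mean of rhChem157S minus the mean of Control libraries, for 17 gene pairs with an identical annotated transcript. The SLX1A/SLX1B bar (purple) reaches 45.5 and the grey bars stay between -16.0 and 17.4.

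Of the 5 listed neighbours of the copies that were tested, edgeR called 0, against 0.0301% of all genes tested. DESeq2 called 0, against 9.05% of its tested genes, and 0 had an unadjusted edgeR p under 0.05, against 22.8% of all genes. With only 5 genes, a count of 0 differs little from these shares. SULT1A4, a sulfotransferase gene that follows SLX1B, had 9, 16 and 24 counts in Control and 21, 205 and 8 counts with rhChem157S, a log2 fold change of 2.34 (edgeR, adjusted p = 0.262). Only rhChem157S replicate 2 was high, and the groups overlapped. SULT1A3, its copy behind SLX1A, had 4, 12 and 23 counts in Control and 11, 20 and 27 counts with rhChem157S (log2 fold change 0.68, edgeR, adjusted p = 0.572). BOLA2B had 0 to 4 counts in Control and 2 to 14 with rhChem157S and was not kept by the filter. The row of BOLA2-SMG1P6, looked up after the SLX1B values were seen, had 15, 17 and 17 counts in Control and 32, 24 and 38 counts with rhChem157S. Its groups did not overlap, as in 32.5% of all genes tested, with a log2 fold change of 1.02 (edgeR, adjusted p = 0.193). Of the 5 listed neighbours tested, 0 had such groups. SULT1A1 and SULT1A2, looked up with it, were lower with rhChem157S. SULT1A1 had 225, 282 and 204 counts in Control and 157, 97 and 64 with treatment, and its groups did not overlap. Its log2 fold change was -1.10 (adjusted p = 0.123 with edgeR and 0.0135 with DESeq2). That of SULT1A2 was -1.22 (edgeR, adjusted p = 0.395), with overlap. CORO1A, the coronin gene before SLX1A, had 71, 122 and 112 counts in Control and 93, 105 and 158 with treatment, with a log2 fold change of 0.33 (edgeR, adjusted p = 0.578). NPIPB12 and NPIPB13, of the nuclear pore interacting protein family, had log2 fold changes of -0.35 and 1.03 (edgeR, adjusted p = 0.314 and 0.225), and in NPIPB13 the treated libraries had 61, 196 and 127 counts against 61 to 76 in Control.

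None of the 6 other nuclease genes passed the test. With edgeR's quasi-likelihood test and Benjamini-Hochberg adjustment 0 of 6 had an adjusted p under 0.05, where 0.0301% of all 13311 genes tested did (4 genes). At an unadjusted p under 0.05 the count was also 0 of 6, against 22.8% of all genes, and DESeq2 called 0 of 6, against 9.05% of its tested genes. In GEN1 alone the groups did not overlap in normalised CPM, 1 of 6, where 32.5% of all genes had such groups. All 6 intervals below include 0 and leave room for changes within them. The widest is that of EME1, from -0.33 to 0.67, and that of GEN1, from -0.02 to 0.43, lies almost wholly above 0.

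SLX4, the scaffold that binds SLX1, lies on the minus strand of chromosome 16, from 3581181 to 3611598. It had a normalised CPM of 47.1, 44.7 and 48.9 in Control replicates 1 to 3 and 51.4, 56.7 and 48.01 in rhChem157S replicates 1 to 3. The groups overlapped through rhChem157S replicate 3. The log2 fold change was 0.15 (95% interval -0.08 to 0.38, edgeR, adjusted p = 0.374), and 0.20 without that library (adjusted p = 0.173). Per length SLX4 was at 4.75 ± 0.199 FPKM (SD, n = 3) in Control and 4.83 ± 0.595 (SD, n = 3) in treated cells. The ratio of the summed SLX1 FPKM to the SLX4 FPKM was 0.769, 1.32 and 0.956 in Control and 2.18, 1.96 and 2.29 in treated libraries. This ratio rests on the SLX1 values that chose the group and is a description. It carries the limits of counting given for the SLX1 sum.

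MUS81, the catalytic subunit of a nuclease that cuts forks and nicked junctions, lies on chromosome 11 from 65857126 to 65867653, and its partner subunit EME1 on chromosome 17 from 50373220 to 50381483. MUS81 had a normalised CPM of 42.3, 39.7 and 46.5 in Control and 41.4, 37.3 and 50.0 with rhChem157S. The groups overlapped, with a log2 fold change of 0.00 (95% interval -0.30 to 0.31, edgeR, adjusted p = 0.989). EME1 had 23.8, 23.9 and 29.2 in Control and 35.6, 31.03 and 19.9 with rhChem157S. Replicates 1 and 2 of the treated group lay above all Control libraries and replicate 3 below all of them. The log2 fold change of EME1 was 0.17 (95% interval -0.33 to 0.67, edgeR, adjusted p = 0.646). It was 0.38 without rhChem157S replicate 3 (adjusted p = 0.124), where that of MUS81 was -0.12 (adjusted p = 0.468). The FPKM ratio of MUS81 to EME1 was 1.37, 1.28 and 1.23 in Control, and 0.901, 0.931 and 1.94 in rhChem157S replicates 1 to 3. The third treated library thus lay on the other side of the Control values from the first and the second.

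GEN1, the resolvase that acts without SLX4, lies on chromosome 2 from 17753858 to 17788941. It had a normalised CPM of 32.6, 34.1 and 37.2 in Control and 37.5, 40.4 and 41.8 with rhChem157S. The gap between the groups, from 37.2 to 37.5, was smaller than the spread within either. The log2 fold change was 0.20 (95% interval -0.02 to 0.43, edgeR, adjusted p = 0.251), and 0.17 without rhChem157S replicate 3 (adjusted p = 0.301). In FPKM, which carry no TMM factor, the groups overlapped, at 6.11 ± 0.436 (SD, n = 3) and 6.43 ± 0.172 (SD, n = 3).

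ERCC1, the DNA-binding subunit of the excision repair nuclease, lies on chromosome 19 from 45407333 to 45478828, and ERCC4, the catalytic subunit, on chromosome 16 from 13920157 to 13952345. ERCC1 had a normalised CPM of 111, 97.7 and 91.3 in Control and 104, 97.7 and 103 with rhChem157S. All 3 treated values lay within the Control range, and the log2 fold change was 0.02 (95% interval -0.20 to 0.24, edgeR, adjusted p = 0.908). ERCC4 had 21.9, 25.8 and 26.1 in Control and 21.1, 26.0 and 26.0 with rhChem157S, and the groups overlapped. Its log2 fold change was -0.01 (95% interval -0.32 to 0.29, edgeR, adjusted p = 0.957). The FPKM ratio of ERCC1 to ERCC4 was 7.66, 5.71 and 5.28 in Control and 7.41, 5.67 and 5.998 in treated libraries, again with overlap. Without strand information, reads of a gene on the opposite strand cannot be separated. In GENCODE all 6 genes share exon bases with such a gene, from 107 bases of GEN1 with SMC6 to 2174 of ERCC4 with AC010401.1. The overlaps of the gene models used in counting were not computed.

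**Figure D4:**
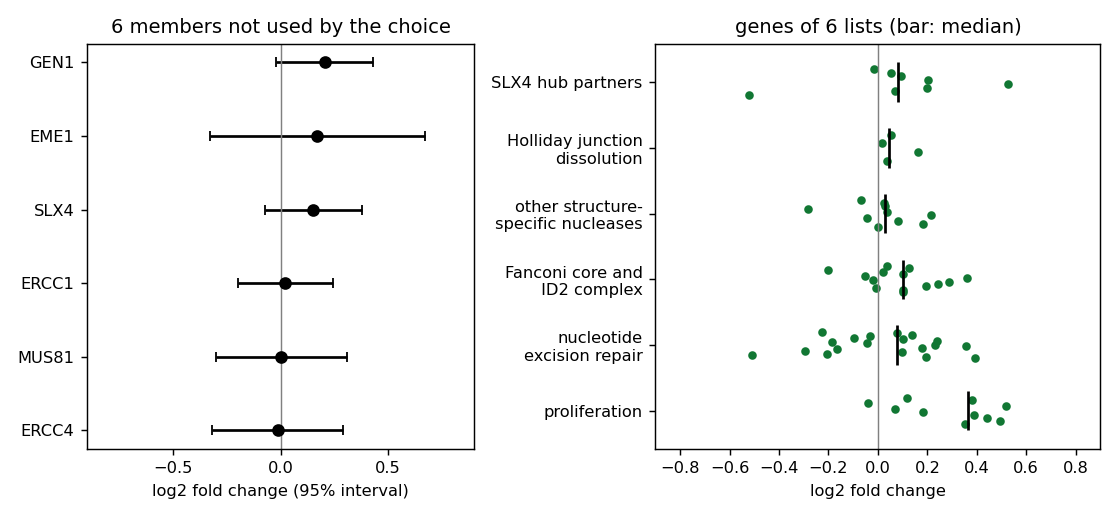
Left, log2 fold change of rhChem157S against Control with its 95% interval for the 6 members that the choice of the group did not use; right, the log2 fold change of each tested gene in 6 lists, with the list's median as a bar. All 6 intervals on the left include 0, and the medians on the right run from 0.03 to 0.37.

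Per length the members covered a wide range of levels in the deposited FPKM, and the SLX1 sum changed its place among them. The SLX1 values may miss reads that align to both copies or hold reads of overlapping genes, so their place among the other members is uncertain. In Control cells the FPKM ran from 22.0 ± 2.10 (SD, n = 3) for ERCC1 through 18.2 ± 1.41 for MUS81, 14.1 ± 1.70 for EME1, 6.11 ± 0.436 for GEN1, 4.80 ± 1.197 for the SLX1 sum and 4.75 ± 0.199 for SLX4 to 3.58 ± 0.366 for ERCC4. The ranges over libraries of ERCC1, MUS81, EME1 and GEN1 did not overlap with each other. Those of GEN1 and SLX4 both overlapped with the SLX1 sum, and that of ERCC4 lay within that of SLX1A. In treated cells the SLX1 sum, at 10.3 ± 0.671, lay above GEN1 and SLX4 in every library, and its range overlapped with that of EME1, at 14.7 ± 4.78. The SLX1B row, below all other members in every Control library, overlapped with GEN1 in treated cells.

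**Figure D5:**
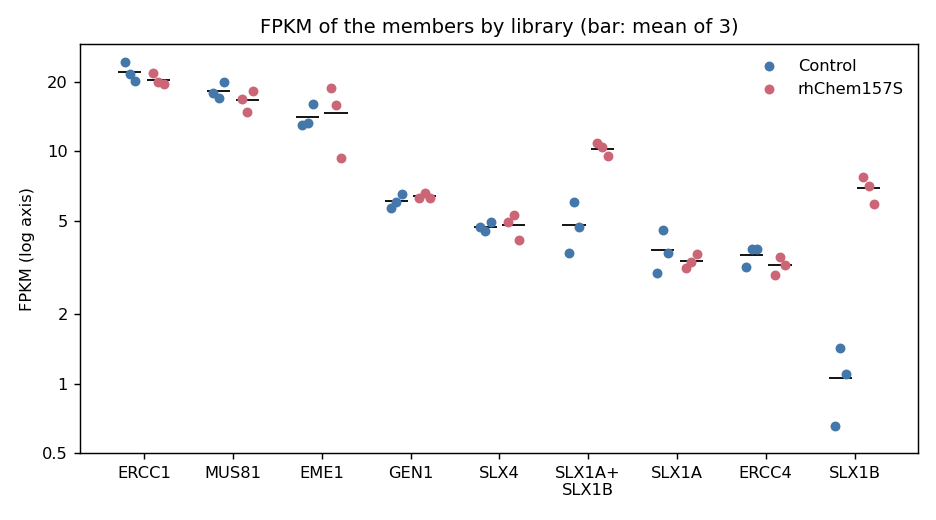
FPKM on a log axis of each member and of the SLX1 sum, with 1 point per library (Control blue, rhChem157S red) and a black bar for the mean of 3 libraries. SLX1B lies between 0.654 and 1.42 in Control and between 5.92 and 7.72 with rhChem157S, and in the 6 members other than the SLX1 copies the points of the groups overlap.

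The other genes of the pathways were taken from 5 lists of repair genes, with 55 genes that were all tested. Of these edgeR called 0, against 0.0301% of all genes, and DESeq2 called 2, or 3.64% against 9.05% of all genes. At an unadjusted edgeR p under 0.05 there were 9, or 16.4% against 22.8% of all genes. In 17, or 30.9%, the groups did not overlap, near the 32.5% of all genes. The DESeq2 and unadjusted shares lay below those over all genes, and no set test was run. Over all genes tested the median was 0.01 on the log2 scale. The SLX4 partners outside the group, 8 genes with the telomere protein TERF2 among them, had a median of 0.08. They ran from -0.52 for EME2, the alternative partner of MUS81 (edgeR, adjusted p = 0.276), to 0.52 for PLK1, a mitotic kinase (edgeR, adjusted p = 0.119), and DESeq2 called PLK1 with an adjusted p of 0.0230. The 4 genes of the BLM complex, which takes Holliday junctions apart without cutting them, had a median of 0.04, from 0.02 for RMI2 to 0.16 for RMI1. The 10 other structure-specific nucleases had a median of 0.03. They ran from -0.28 for FAN1, a nuclease of crosslink repair (edgeR, adjusted p = 0.212), to 0.22 for ERCC5, which makes the other cut of excision repair (edgeR, adjusted p = 0.633). The 14 Fanconi genes had a median of 0.10, from -0.20 for FANCL, the ubiquitin ligase, to 0.36 for FANCE, a subunit of the core complex. The 19 excision repair genes had a median of 0.08, from -0.51 for DDB2, a damage sensor, to 0.39 for CETN2, a partner of XPC (edgeR, adjusted p = 0.171 and 0.123), and DESeq2 called CETN2 with an adjusted p of 0.0448.

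Proliferation genes, which mark cycling cells, were measured beside them. The median over the 10 listed genes was 0.37 on the log2 scale, with 0 called by edgeR, against 0.0301% of all genes. At an unadjusted edgeR p under 0.05, 6 of the 10 were higher, where 22.8% of all genes passed in either direction, and in 6 the groups did not overlap, against 32.5% of all genes. They ran from -0.04 for PCNA, the replication clamp, to 0.52 for MKI67 (edgeR, adjusted p = 0.788 and 0.0707), and DESeq2 called 5 of the 10, against 9.05% of all genes. Their summed FPKM was 771 to 831 in Control and 770 to 903 in treated libraries. The part of this difference in the SLX1 values was not tested.

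The epithelial label of the line was checked against 7 markers. The keratins carried most of their summed FPKM, which was 1596 to 1866 in Control and 1760 to 1976 with rhChem157S, with KRT8 at 748 to 966. EPCAM and CDH1, which define epithelia, were near 0, at 0.125 to 0.807 and 0.0859 to 0.381 FPKM. Of the other markers, KRT7 had 1.19 to 2.01 FPKM and the mucin gene MUC1 had 6.79 to 14.4 FPKM. The 6 stromal markers summed to 1543 to 2021 FPKM in Control and 1084 to 2144 with rhChem157S, most of it collagen, so the line expressed keratins together with stromal genes. The log2 fold changes ran from -1.46 for EPCAM to 0.29 for KRT8 among epithelial markers and from -0.60 for PDGFRB to 0.79 for PDGFRA among stromal markers. Of 4 leukocyte and endothelial markers 2 were tested, CD68 at 0.11 and VWF at -1.97 (edgeR, adjusted p = 0.816 and 0.117), and PTPRC and PECAM1 stayed under 0.06 FPKM. Of the 15 markers tested edgeR called 0, against 0.0301% of all genes. DESeq2 called 3, or 20% against 9.05% of its tested genes. These were MUC1, PDGFRA and VWF, with DESeq2 adjusted p of 0.0404, 0.0206 and 0.00489. At an unadjusted edgeR p under 0.05 there were 7 of 15, or 46.7% against 22.8% of all genes. In 6, or 40%, the groups did not overlap, against 32.5% of all genes. These markers' part in the SLX1 values was not tested.

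The genes whose profile was most like that of SLX1B over the 6 libraries were MMP9, SERPINB3, GAL, EID3 and FERMT1. Likeness was the root mean square difference of centred log2 CPM over 13310 genes, at 0.615 for MMP9 and 0.792 for FERMT1. As the search matched the SLX1B values, which chose the group, a rise with rhChem157S in these genes was built into it. All 5 were low in these cells, at most 3.17 FPKM. MMP9, a matrix metalloproteinase, had 0.254, 0.757 and 0.903 FPKM in Control and 1.48, 3.17 and 2.34 with rhChem157S. GAL, the neuropeptide galanin, was listed at 0, 0.327 and 0 FPKM in Control replicates 1 to 3 and at 0.418, 0.625 and 0.393 with rhChem157S. SERPINB3, a serine protease inhibitor, had 0.149 to 0.260 FPKM in Control and 0.392 to 1.16 with rhChem157S, EID3 had 0.231 to 0.816 and 0.960 to 1.67, and FERMT1, the gene of kindlin-1, had 0.183 to 0.437 and 0.666 to 1.01. In centred log2 CPM the treated libraries of SLX1B lay 1.29 to 1.52 above its mean, and those of MMP9 0.39 to 1.52 above its own.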

How the data were processed

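RNA of 12Z cells left untreated (Control) or treated with rhChem157S was sequenced as 150-base read pairs. Per the labels and methods, the authors cleaned the reads with fastp, mapped them to GRCh38.p13 by HISAT2 and obtained raw read counts by HTSeq-count. The deposited tables hold these counts and, separately, FPKM. Tool versions, strand setting and counting mode are not given in the sources used here. As a check, gene lengths were derived from FPKM, count and library total. All 89195 values matched the length so derived for their gene within a tolerance of 0.001. No independent gene length was used, so the check shows only that the implied length of a gene was constant across libraries.

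R 4.3.3 was used. Tests on the counts used edgeR 4.0.16 (TMM, filterByExpr, quasi-likelihood test, Benjamini-Hochberg over 13311 genes, adjusted p under 0.05). DESeq2 1.42.0, limma 3.58.1 with log2(FPKM + 1) or log2(FPKM + 0.1), other scalings and filters, robust dispersions, the replicate block and each library left out were alternatives. For the SLX1 sum both rows were replaced by their sum. The fits were tested on simulated data. With 3 libraries per group an exact permutation test cannot go below p = 0.1. One count was 0.0261 to 0.0282 CPM.

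Transcripts and coordinates came from GENCODE release 29. Members and lists were chosen with earlier results of these data known. All members are named, together with the extreme genes of each list (most negative and most positive log2 fold change), the block neighbours and the 5 genes most like SLX1B (prior count 2). Other genes were named after their values were seen. The deposited pathway annotation gave no value printed here.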

Additional observations from a re-analysis of the deposited data

How the results depend on the processing

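The 6 tested members had 0 calls under every alternative run, including the replicate block and each library left out. Several of these runs could hardly give another result. Over all genes, the replicate block called 1, and leaving out any Control library or rhChem157S replicate 2 called 0. DESeq2 called 9.05% of its tested genes, and 0 of 6 differs little from that share. The log2 fold change of the SLX1 sum ranged from 0.98 (limma on log2(FPKM + 1)) to 1.42, and the SLX1B share rose by 43.5 to 48.03 percentage points with 1 library left out and by 45.2 with pooled counts. The log2 fold change of SLX1B was 1.96 with limma on log2(FPKM + 1), whose pseudocount is near its Control level, the lowest of all alternatives, and reached 3.10 without Control replicate 2.

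Of the list genes, 85 were tested in the main fit, which called 0. DESeq2 called 10 of the list genes, where it called 9.05% of all its tested genes. With 1 library left out, 0 to 7 were called. There were 7 without rhChem157S replicate 1, where 844 were called over all genes. There were 3 without rhChem157S replicate 3, where 415 were called over all genes. These counts are not read as a result about the lists. Over all genes, the calls were 4, against 1302 with DESeq2, 844 without rhChem157S replicate 1, 415 without rhChem157S replicate 3, and 0 for each of the other libraries left out. The other settings called 1 (replicate block) to 179 genes (limma on log2(FPKM + 1)). The causes were not tested.

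Signs turned for MUS81, EME1, ERCC1 and ERCC4, and not for SLX4 or GEN1. MUS81 was at 0.00 with DESeq2 size factors (-0.0019) and a minimum of 20 counts (-0.0015), -0.13 with library size only, -0.13 with limma on either FPKM scale, and -0.0039 with the replicate block; without 1 library it ran from -0.12 to 0.087. ERCC1 was at -0.11 with library size only and at -0.10 with limma on log2(FPKM + 1) and log2(FPKM + 0.1); without 1 library it ran from -0.040 to 0.11. EME1 ran from -0.016 to 0.38 and ERCC4 from -0.090 to 0.072 without 1 library. Library size only moved the median of all genes to -0.12.

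The labels number the replicates and do not say whether same-numbered libraries were paired. Deviations of same-numbered libraries correlated at 0.241, 0.0015 and 0.247, and 4 of 6 libraries correlated best with their own number. These values do not settle whether the libraries were paired, and the main fit used no pairing. With the replicate block 0 members, 0 list genes and 1 gene overall were called, the log2 fold change of the SLX1 sum was 1.25 and that of SLX1B was 2.87. Limits are the depth on SLX1B in Control, 27 to 61 counts per library, and the untested assignment of reads between copies with identical coding transcripts.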
